A study of Mus musculus with 12 samples.

Results

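The genes described here encode 7 matrix metalloproteinases (MMPs; *Mmp2*, *Mmp3*, *Mmp9*, *Mmp10*, *Mmp11*, *Mmp13* and *Mmp14*) and 3 tissue inhibitors of metalloproteinases (TIMPs; *Timp1*, *Timp2* and *Timp3*). They were chosen by symbol: all probes other than controls that the scanner files name for these 10 genes were used, which gave 14 of the 41174 distinct probes, printed as 23 of the 43379 spots. The cells were C57MG, a line of mammary epithelium from the mouse. They were switched to plain DMEM and received for 24 h recombinant human Rspo2 at 100 ng/ml, recombinant mouse Wnt3a at 100 ng/ml, both proteins at these doses, or bovine serum albumin (BSA), the carrier protein, alone. Each group comprised 3 monolayers and 3 arrays, so that p-values measure the spread between monolayers of 1 cell line.

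MMPs are zinc-dependent endopeptidases that are made as inactive precursors and, once their propeptide has been removed, cleave collagens, other matrix proteins, growth factors and adhesion molecules. TIMPs bind the active site of the proteases and block it. In the mammary gland, MMPs and TIMPs take part in the branching of ducts and in the remodeling of the gland after lactation. Rspo2 is a secreted protein that strengthens the response of cells to Wnt ligands such as Wnt3a.

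Signals were expressed as log2 values after division by each array's 75th percentile, so that a value of 0 equals that percentile. A probe was tested when 1 group or more had a signal well above background on each of its 3 arrays. In the text, "rose" and "fell" mean an adjusted p under 0.05 in limma, a linear model fitted over all tested probes, and a change counted as called when it was also at least 2-fold. Of the 14 member probes, 11 were tested, covering 8 of the 10 genes, and all 11 were well above background on all 12 arrays. The 3 probes of *Mmp9* and *Mmp13* were not.

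Between 51.28% and 64.15% of all probes were well above background on an array, and the 75th percentile lay between 773.9 and 1146 intensity units. Each of 3 slides carried 4 of the 12 arrays. On slide 1, Rspo2 replicate 1 lay next to the BSA group. Wnt3a replicate 3 shared slide 3 with all arrays of the combination, and slide 2 took the remaining Rspo2 and Wnt3a arrays. BSA was thus never on a slide with Wnt3a or with the combination. Of a list of 12 Wnt feedback genes, 6 were tested. All 6 rose with the combination, beside 21.9% of all tested probes, and 2 of them passed with slide as a term. *Axin2* was above background on only 3 of the 12 arrays, with a mean log2 signal of -6.72 with BSA and -1.8 with the combination. It was thus tested only through the group where it was high. The list was written with earlier results of these data known, so the count is no independent check of the treatment. Of 7 luminal epithelial markers, *Cdh1* (E-cadherin) and *Cldn7* were above background on no array, *Krt19* and *Epcam* on 2 and *Krt18* on 3 of the 12. *Cldn3* was above background on 8 and *Krt8* on all 12. The basal markers *Krt14*, *Trp63* and *Acta2* were above background on all 12 arrays, whereas *Krt5* was on 10, *Cnn1* on 4 and *Myh11* on 2. Of the mesenchymal markers, *Vim*, *Col1a1*, *Col1a2*, *Col3a1*, *Pdgfra* and *Pdgfrb* were above on all 12, *Dcn* on 11, and *Thy1* and *Lum* on 0. The leukocyte markers *Ptprc* (CD45), *Adgre1* and *Itgam* were each above background on 1 array, *Csf1r* on 11, and *Cd68*, *Lyz2* and *Cd14* on all 12. The summed signal of the 7 leukocyte markers, relative to the 75th percentile, ranged from 7.27 to 8.13 in the BSA group, from 8.63 to 9.56 under Rspo2, from 7.03 to 7.58 under Wnt3a and from 4.95 to 5.44 under the combination. That of the 6 basal markers was 132 to 140, 170 to 192, 184 to 206 and 220 to 257 in the same order of groups, and that of the 4 endothelial markers 2.43 to 2.6, 1.85 to 1.89, 1.66 to 1.87 and 1.63 to 1.75. Of the latter, *Cdh5* was above background on all 12 arrays and *Kdr* on none. The basal sum was mostly *Acta2*, whose mean log2 signal was 6.96 with BSA, beside 3.35 for *Krt14*. With both proteins *Acta2* and *Krt14* rose by 0.78 and 1.24 (adjusted p = 7.26e-05 and 8.28e-06 in limma), and *Trp63* fell by 0.40 (adjusted p = 0.0143). *Krt5* fell by 0.84 with Rspo2 and by 0.57 with Wnt3a (adjusted p = 0.0212 and 0.0405). With slide as a term 0 of these changes passed. The other sums follow in the order BSA, Rspo2, Wnt3a and both. For the 7 luminal markers they were 0.172 to 0.334, 0.166 to 0.205, 0.125 to 0.145 and 0.104 to 0.26. For 9 mesenchymal markers they were 235 to 256, 227 to 240, 245 to 259 and 242 to 244. For 4 adipocyte markers they were 0.576 to 0.669, 0.758 to 0.866, 0.581 to 0.68 and 0.376 to 0.46. The part of these markers in the results below was not tested.

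No member probe was called at 2-fold in any comparison by limma. Dropping the fold requirement, of the 11 tested member probes 0 passed with Rspo2, 4 did with Wnt3a, and the combination had 7, all against BSA. With the combination, *Mmp3*, *Mmp11* and *Timp2* fell, *Timp1* and *Timp3* rose, and *Mmp2*, *Mmp10* and *Mmp14* did not pass. The methods' t-test, with unequal variances, an unadjusted p and a 2-fold requirement, also called 0 member probes in each comparison. At an unadjusted p under 0.05 in limma, 3, 6 and 10 of the 11 member probes passed with Rspo2, Wnt3a and the combination, none at 2-fold, beside 35%, 43% and 47.9% of all tested probes.

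The shares have to be read against all 22750 tested probes, and the 3 comparisons share the BSA arrays. With Rspo2, 0.721% of these were called at 2-fold and 16.8% passed the adjusted p alone. With Wnt3a the shares were 2.52% and 31.5%, of which 18.3% of the tested probes rose and 13.2% fell; the members' 36.4% was near that background. With the combination 5.08% were called and 39.2% passed (21.9% higher and 17.3% lower), against 63.6% of the member probes, 3 of which belong to 1 gene. The median change of the member probes was 0.04 with Rspo2, -0.16 with Wnt3a and -0.18 with the combination on the log2 scale, beside 0.01, 0 and 0.04 for all tested probes. With another background correction, normexp, only the changes of *Mmp3* and *Timp3* with the combination passed (-0.81 and 0.90, adjusted p = 0.0113 and 0.0344).

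**Figure D1:**
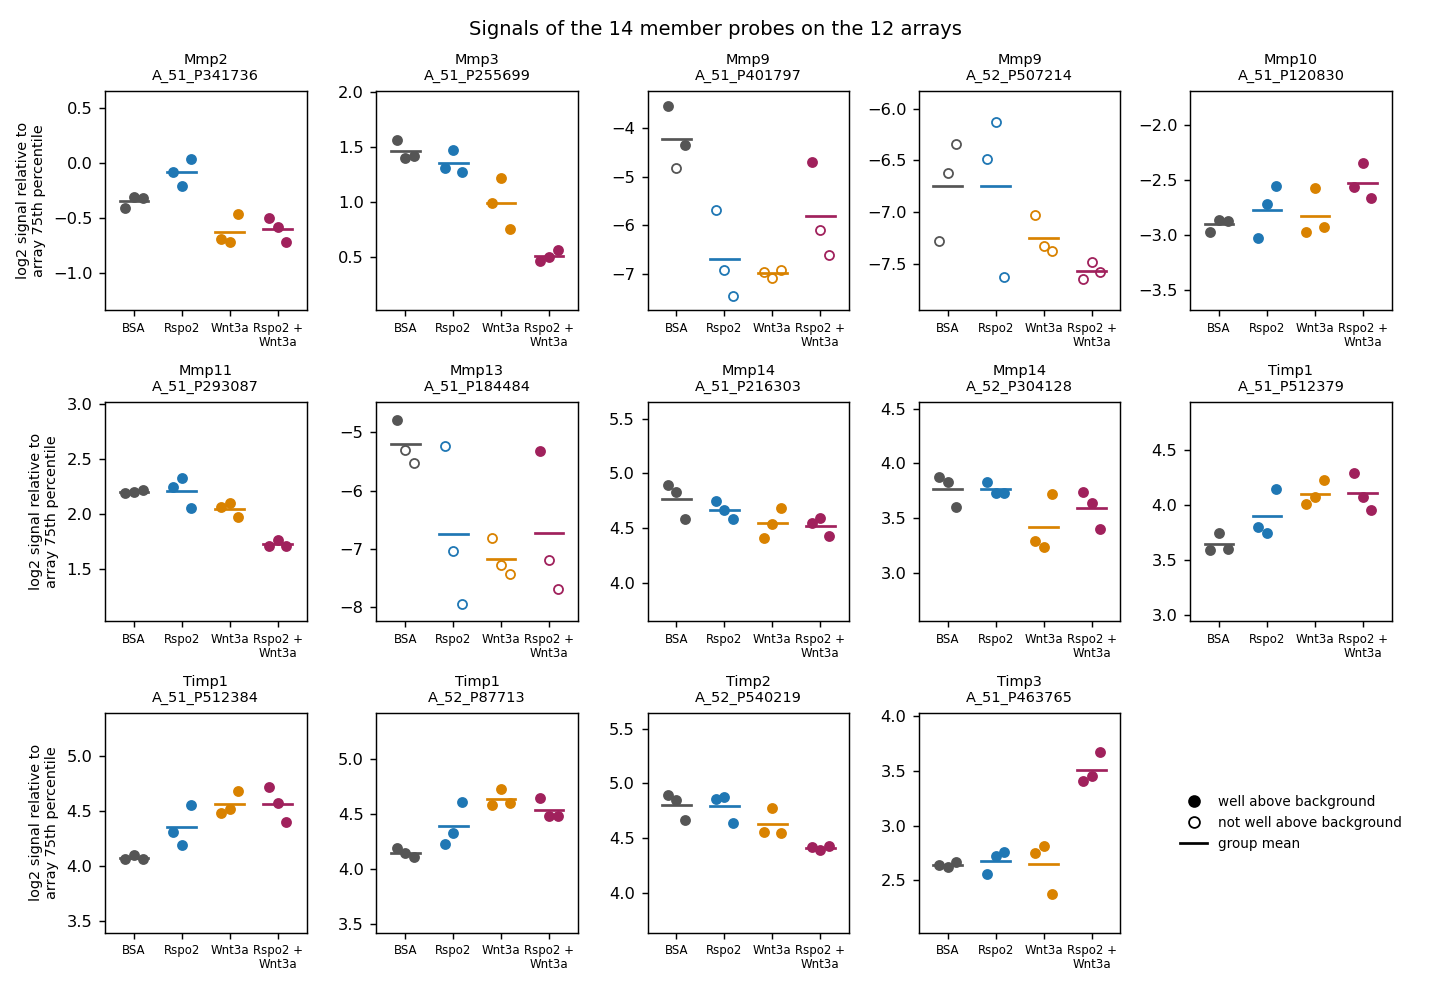
Log2 signal over the array's 75th percentile (y axis) of each of the 14 member probes by treatment (x axis); points are arrays, filled where the probe was well above background, and lines are group means of 3 arrays. Each panel has its own axis range. Timp3 was between 3.41 and 3.67 with both proteins and between 2.38 and 2.81 on the other 9 arrays.

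*Mmp3* encodes a stromelysin, which cleaves basement membrane proteins and E-cadherin and activates other MMPs. Its log2 signal was 1.56, 1.40 and 1.42 on the BSA arrays, 1.31, 1.47 and 1.27 with Rspo2, 0.99, 1.22 and 0.75 with Wnt3a, and 0.46, 0.50 and 0.56 with both proteins. The order was BSA, Rspo2, Wnt3a and the combination, from high to low, and only BSA and Rspo2 overlapped. *Mmp3* fell by 0.47 on the log2 scale with Wnt3a (SE 0.11, adjusted p = 0.0103 in limma, n = 3 per group) and by 0.95 with the combination (SE 0.11, adjusted p = 0.000127), to 0.516 of the BSA level. It thus stopped just short of 2-fold, and under quantile normalization the fall with both proteins was 1.02 on the log2 scale. The change with Rspo2 alone was -0.11 (95% confidence interval -0.36 to 0.14, adjusted p = 0.527). In a bulk sample, fewer cells that express a gene and less of its RNA per cell cannot be told apart.

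Adding Rspo2 to Wnt3a lowered *Mmp3* further, by 0.48 on the log2 scale (SE 0.11, adjusted p = 0.0358), and the combination did not overlap with Wnt3a alone. This last call was the least firm. Within slide 3, the 3 arrays of the combination were lower than the single Wnt3a array by a mean of 0.25 (adjusted p = 0.661, with the spread taken from the arrays of the combination), and the call was lost in 8 of the 12 fits that left out 1 array: BSA replicate 2 or 3, Rspo2 replicate 1, Wnt3a replicate 1 or 2, or any array of the combination, with adjusted p between 0.0521 and 0.128. A fit with a term for slide gave changes against BSA of -0.42 for Wnt3a (adjusted p = 0.333) and -0.67 for the combination (adjusted p = 0.175), and neither passed. The fall against BSA with the combination passed in 25 of the 26 alternatives tried, and the fit with slide was the 1 that failed. The 26 include the 12 fits that left out 1 array, so they are no independent checks.

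*Mmp11* encodes another stromelysin, which is activated inside the cell by the protease furin and is best known from stromal cells around carcinomas. Its log2 signal was 2.19, 2.20 and 2.22 with BSA, 2.25, 2.33 and 2.05 with Rspo2, 2.06, 2.10 and 1.97 with Wnt3a, and 1.71, 1.76 and 1.71 with both proteins. The arrays of the combination were lower than the other 9 arrays. *Mmp11* fell by 0.47 with the combination (SE 0.08, adjusted p = 0.00127 in limma), to 0.72 of the BSA level. The single proteins gave changes of 0.01 and -0.16 (adjusted p = 0.953 for Rspo2 and 0.164 for Wnt3a) that did not pass, and neither did that on adding Rspo2 to Wnt3a (-0.32, adjusted p = 0.0576). In the fit with slide the change with the combination was -0.31 (adjusted p = 0.502).

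*Mmp10* is the stromelysin gene next of kin to *Mmp3*, and the pair lies in the cluster of *Mmp* genes on chromosome 9, with *Mmp1a* between them. Its log2 signal was -2.97, -2.86 and -2.87 with BSA, -3.03, -2.72 and -2.55 with Rspo2, -2.97, -2.57 and -2.93 with Wnt3a, and -2.56, -2.34 and -2.66 with both proteins. The arrays of the combination were above those of BSA, but the change of 0.38 did not pass (SE 0.14, adjusted p = 0.0553). It passed under quantile normalization (0.57, adjusted p = 0.0198), in a fit of only the groups compared (adjusted p = 0.0268), with the replicate number as a block (adjusted p = 0.0426) and without Rspo2 replicate 1 or 3, Wnt3a replicate 2 or replicate 3 of the combination (adjusted p between 0.0365 and 0.0486). With normexp it was -0.03 (adjusted p = 0.967).

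The 250 bases before the annotated start of these genes were searched for short motifs because *Mmp3*, *Mmp10* and *Mmp13* share a cluster and *Timp1* and *Timp3* were the members that rose. Sequences are from RefSeq (GRCm38.p6), which gave a promoter for 8 of the 10 members. Capitals mark matches to AP-1 (TGANTCA), PEA3/ETS (AGGAAG) or a TATA box (TATAAA), read on both strands, with the start site just after the last base.
Mmp3 (chr9:7445572-7445821, plus strand): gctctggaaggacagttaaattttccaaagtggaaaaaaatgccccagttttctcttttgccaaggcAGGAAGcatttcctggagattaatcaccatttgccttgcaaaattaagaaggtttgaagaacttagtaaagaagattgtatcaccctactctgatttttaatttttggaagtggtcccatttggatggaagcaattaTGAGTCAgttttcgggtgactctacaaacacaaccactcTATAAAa
Mmp10 (chr9:7502092-7502341, plus strand): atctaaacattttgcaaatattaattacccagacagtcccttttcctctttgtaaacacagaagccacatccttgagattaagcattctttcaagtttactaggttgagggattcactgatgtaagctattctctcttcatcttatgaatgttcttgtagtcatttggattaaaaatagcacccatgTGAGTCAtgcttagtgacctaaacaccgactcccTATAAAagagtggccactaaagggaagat
Mmp13 (chr9:7272264-7272513, plus strand): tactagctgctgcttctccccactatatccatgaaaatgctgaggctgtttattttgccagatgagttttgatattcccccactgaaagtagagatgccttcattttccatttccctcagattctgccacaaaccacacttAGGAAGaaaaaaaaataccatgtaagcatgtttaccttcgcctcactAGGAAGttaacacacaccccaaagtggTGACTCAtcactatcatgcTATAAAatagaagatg
Timp1 (chrX:20869916-20870165, plus strand): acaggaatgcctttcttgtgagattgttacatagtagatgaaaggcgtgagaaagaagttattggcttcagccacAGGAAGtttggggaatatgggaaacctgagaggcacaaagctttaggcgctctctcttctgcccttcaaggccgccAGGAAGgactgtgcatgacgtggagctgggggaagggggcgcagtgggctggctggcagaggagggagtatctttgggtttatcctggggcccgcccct
Timp3 (chr10:86300162-86300411, plus strand): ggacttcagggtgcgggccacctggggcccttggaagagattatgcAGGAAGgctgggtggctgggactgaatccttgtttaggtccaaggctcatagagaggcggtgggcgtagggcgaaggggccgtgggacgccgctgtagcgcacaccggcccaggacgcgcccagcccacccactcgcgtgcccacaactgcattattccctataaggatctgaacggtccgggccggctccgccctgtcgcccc
An AP-1 match and a TATAAA match occurred in the 3 cluster genes and in no other of the 8 windows, whereas 6.75% of 32851 mouse promoter windows of this length held the former and 12.4% the latter. *Mmp3* and *Mmp10* both had TGAGTCA upstream of TATAAA, at 46 and 63 bases before the start. PEA3/ETS matches were in 5 windows (*Mmp3*, *Mmp13*, *Mmp14*, *Timp1* and *Timp3*) and in 29.5% of all windows. The TCF/LEF letters CTTTGAT and CTTTGTT were in none of the 8 and in 3.21% and 5.03% of all windows. No match overlapped another. These are letters in a window, and no binding was measured.

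**Figure D2:**
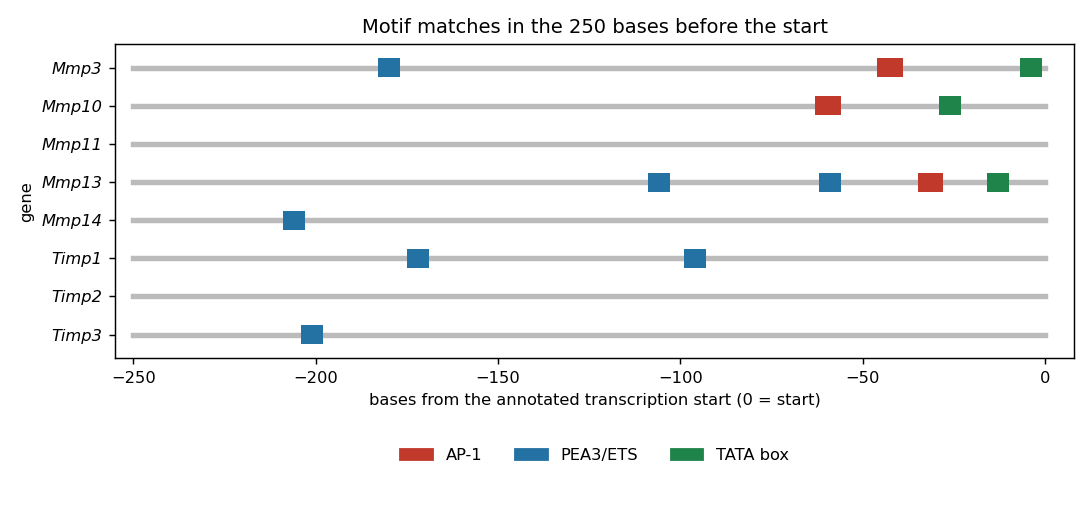
Positions of AP-1, PEA3/ETS and TATA box matches (coloured blocks) in the 250 bases before the annotated start of 8 member genes (grey lines); the x axis is the distance from the start in bases. AP-1 and TATA box matches are in Mmp3, Mmp10 and Mmp13, and Mmp11 and Timp2 have no match.

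Gelatinase A, encoded by *Mmp2*, cleaves denatured collagen and collagen of basement membranes. The log2 signal of *Mmp2* was -0.41, -0.31 and -0.32 with BSA, -0.08, -0.21 and 0.04 with Rspo2, -0.69, -0.72 and -0.46 with Wnt3a, and -0.50, -0.58 and -0.72 with both proteins. The Rspo2 arrays were above the BSA arrays, and those of Wnt3a and of the combination were below them, with no overlap. None of the differences passed. They were 0.26, -0.28 and -0.25 (adjusted p = 0.0885, 0.0533 and 0.0637, in the same order). Wnt3a and the combination overlapped and differed by 0.02 (95% confidence interval -0.19 to 0.24). Without Wnt3a replicate 3 the adjusted p was 0.0224 with Wnt3a and 0.04 with both. With the 75th percentile of probes above background on all arrays, both changes passed (-0.40 and -0.37, adjusted p = 0.00961 and 0.0106). The change with Wnt3a also passed without Rspo2 replicate 3 (adjusted p = 0.0482) and among only the probes above background on all arrays (0.0469). Neither passed under quantile normalization (adjusted p = 0.103 and 0.0999) or with normexp (0.235 and 0.31).

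*Mmp14* encodes a membrane-anchored MMP that activates the precursor of gelatinase A at the cell surface. It had 2 probes, A_51_P216303 and A_52_P304128. The first was 4.89, 4.83 and 4.58 with BSA, 4.75, 4.67 and 4.58 with Rspo2, 4.41, 4.54 and 4.68 with Wnt3a, and 4.55, 4.59 and 4.43 with both, so that the groups overlapped. Its changes were -0.10, -0.23 and -0.24 with Rspo2, Wnt3a and both (adjusted p = 0.5, 0.117 and 0.083), and those of the other probe were -0.01, -0.35 and -0.18 (adjusted p = 0.98, 0.0741 and 0.337). Neither probe passed. In the second, Wnt3a replicate 3 was at 3.72 and the other Wnt3a arrays were at 3.29 and 3.24, and without replicate 3 its change with Wnt3a was -0.50 (adjusted p = 0.0129). Without BSA replicate 3 the first probe passed with either Wnt3a treatment, alone (adjusted p = 0.0487) or combined (adjusted p = 0.0318). Under quantile normalization both probes passed as lower, with changes of -0.52 and -0.61 with Wnt3a (adjusted p = 0.00595 and 0.00765) and of -0.51 and -0.41 with both (adjusted p = 0.00363 and 0.027).

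*Mmp9* encodes gelatinase B, which overlaps with gelatinase A in its substrates and is made in quantity by leukocytes. Probe A_51_P401797 gave 81.7, 40.5 and 53.5 intensity units with BSA, 19.9, 7.24 and 4.56 with Rspo2, 7.29, 5.71 and 6.72 with Wnt3a, and 36.4, 13.9 and 10.9 with both. It was well above background on 2 of 3 BSA arrays, on 1 of 3 with both and on none with Rspo2 or Wnt3a, and the BSA arrays were the brightest. Against a floor, the BSA mean was 1.82-fold higher than with Rspo2 and 2.16-fold higher than with Wnt3a. For the floor, the dim group was set to the lowest signal well above background on its arrays or its own signal, whichever was higher. These values are no firm lower bounds, because BSA replicate 2, at 40.5 units, was itself not well above background. Because the probe was not above background on every array of any group, it was not tested. When the filter was lifted, its fitted change with Wnt3a was -2.75 on the log2 scale (adjusted p = 0.0168 in limma), and when a signal only had to be positive and significant it was also called with Rspo2 (-2.45, adjusted p = 0.0346). These fitted values lie below background and are no measured folds.

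The other *Mmp9* probe, A_52_P507214, was printed on 10 spots. It was well above background on no array, at 4.01 to 13.4 intensity units, so that the probes of *Mmp9* did not show the same signal with BSA. *Mmp13*, a collagenase gene, had 1 probe, which gave 34.7, 28.8 and 23.6 units with BSA, 27.2, 6.67 and 3.23 with Rspo2, 8.02, 4.98 and 4.66 with Wnt3a, and 23.5, 6.63 and 5.13 with both. It was well above background on 1 BSA array and on 1 array of the combination. As a single BSA array was above background, no fold is given for *Mmp13*. The dim signals also moved with the slide: the median of all untested probes was 8.33 to 11.6 units on the 4 arrays of slide 1 and 3.35 to 6.85 on the other 8, and the part of this in the *Mmp9* and *Mmp13* signals was not tested. Within slide 1, Rspo2 replicate 1 was below the 3 BSA arrays for *Mmp9* (log2 signal -5.68 against -3.54, -4.82 and -4.34) and within their range for *Mmp13* (-5.23 against -4.78, -5.31 and -5.52).

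**Figure D3:**
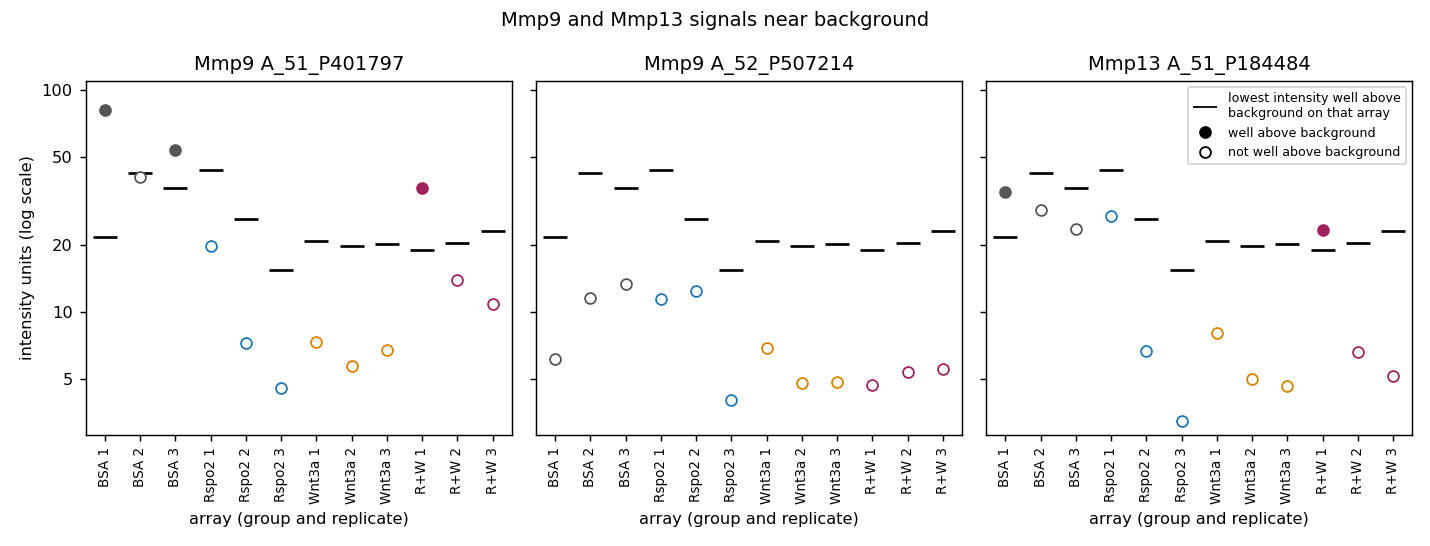
Intensity (y axis, log scale) of the Mmp9 and Mmp13 probes on each array (x axis; R+W is Rspo2 plus Wnt3a); circles are filled where the probe was well above background, and bars give the lowest intensity well above background on that array. Mmp9 probe A_51_P401797 is filled on 2 BSA arrays and 1 array of the combination, and probe A_52_P507214 on none.

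*Timp1* encodes a secreted inhibitor of most soluble MMPs, with growth-promoting actions of its own. It had 3 probes. A_52_P87713 was at 4.19, 4.15 and 4.11 with BSA, 4.23, 4.33 and 4.61 with Rspo2, 4.58, 4.73 and 4.60 with Wnt3a, and 4.65, 4.48 and 4.48 with both. Every treated array lay above the BSA arrays, and the treated groups overlapped. This probe rose by 0.49 with Wnt3a (SE 0.10, adjusted p = 0.00546 in limma) and by 0.38 with both (SE 0.10, adjusted p = 0.012). Probe A_51_P512384 rose by 0.49 in each case (adjusted p = 0.00766 and 0.0053), and probe A_51_P512379 by 0.45 and 0.46 (adjusted p = 0.0187 and 0.0139). The probes therefore gave folds between 1.31 and 1.41. With Rspo2 alone their changes were 0.24, 0.28 and 0.25 (adjusted p = 0.119, 0.101 and 0.174) and did not pass.

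Adding Rspo2 to Wnt3a moved the *Timp1* probes by -0.10, 0 and 0.01 on the log2 scale, with the widest 95% confidence interval from -0.27 to 0.28. In the fit with slide the 3 probes lay between 0.24 and 0.37 with Wnt3a and between 0.12 and 0.26 with both, and no probe passed (adjusted p = 0.471 to 0.888). Under quantile normalization they lay between 0.12 and 0.23, and only A_51_P512384 passed, with both proteins (adjusted p = 0.0418). Probe A_51_P512379 lost its call with Wnt3a without BSA replicate 1 (adjusted p = 0.058), BSA replicate 3 (0.0585) or Wnt3a replicate 3 (0.0558), and with both without replicate 1 of the combination (0.0579).

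*Timp2* encodes an inhibitor that also takes part, with the product of *Mmp14*, in the activation of gelatinase A. Its log2 signal was 4.89, 4.85 and 4.67 with BSA, 4.86, 4.88 and 4.64 with Rspo2, 4.56, 4.78 and 4.55 with Wnt3a, and 4.42, 4.39 and 4.43 with both. The arrays of the combination were lower than the other 9. *Timp2* fell by 0.39 with the combination (SE 0.10, adjusted p = 0.00905 in limma), to 0.762 of the BSA level, and neither Rspo2 (-0.01, adjusted p = 0.945) nor Wnt3a (-0.18, adjusted p = 0.189) gave a change that passed. In the fit with slide the change was -0.16 (adjusted p = 0.795), and under quantile normalization it was -0.66 (adjusted p = 0.00166), where *Timp2* also passed as lower with Wnt3a (-0.47, adjusted p = 0.0158).

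*Timp3* encodes the TIMP that stays bound to the matrix and that also inhibits ADAM and ADAMTS proteases. Its log2 signal was 2.64, 2.62 and 2.67 with BSA, 2.56, 2.72 and 2.76 with Rspo2, 2.75, 2.81 and 2.38 with Wnt3a, and 3.41, 3.45 and 3.67 with both proteins. Only the combination stood apart, and the other groups overlapped. *Timp3* rose by 0.86 with the combination against BSA (SE 0.12, adjusted p = 0.000345 in limma), which is 1.82-fold. It also rose by 0.86 when the combination was set against Wnt3a alone (SE 0.12, adjusted p = 0.0021). Against BSA, the change was 0.04 with Rspo2 (95% confidence interval -0.22 to 0.30) and 0.01 with Wnt3a (-0.26 to 0.27).

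The effect of both proteins beyond the sum of their single effects, the interaction, was 0.82 for *Timp3* (SE 0.17, 95% confidence interval 0.45 to 1.19, adjusted p = 0.0193). It was the only one of the 11 member probes to pass, beside 8.9% of all tested probes by adjusted p and 1.93% at 2-fold. On adding Rspo2 to Wnt3a, *Timp3* and *Mmp3* passed, beside 4.27% of all tested probes by adjusted p and 0.747% at 2-fold. At an unadjusted p under 0.05, 4 member probes passed in each of these comparisons, beside 29.3% of all tested probes for the interaction and 18.4% on adding Rspo2 to Wnt3a. Within slide 3, the arrays of the combination were 1.13 above Wnt3a replicate 3 (adjusted p = 0.108, where that lone array was assumed to vary like the others). With slide as a term, *Timp3* was the only member probe that rose or fell with the combination. Its changes were 1.10 against BSA (adjusted p = 0.025), 1.13 against Wnt3a (adjusted p = 0.00293) and 1.21 for the interaction (adjusted p = 0.0179), each then past 2-fold. In that fit the combination was joined to the other groups only through Wnt3a replicate 3, the lowest Wnt3a array (2.38, against 2.75 and 2.81). The 1.13 is therefore the same difference as within slide 3, and the larger sizes rest on that array. BSA was joined to the other slides only through Rspo2 replicate 1. With normexp the change against Wnt3a was 0.92 (adjusted p = 0.18) and the interaction 1.1 (adjusted p = 0.453), so that neither passed. The rise against BSA passed in all 26 alternatives, which include the fits that left out 1 array and are no independent checks.

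**Figure D4:**
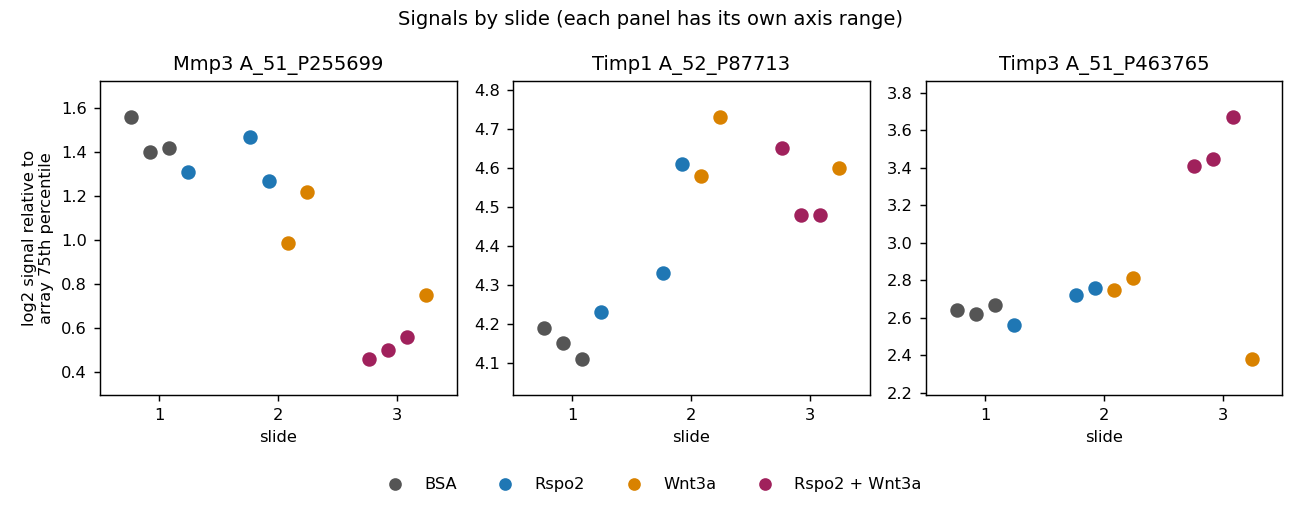
Log2 signal over the array's 75th percentile (y axis, with its own range in each panel) of the probes of Mmp3, Timp1 and Timp3 on the 3 slides (x axis); each point is an array, coloured by treatment. On slide 3, Timp3 was at 2.38 with Wnt3a and at 3.41 to 3.67 with both proteins, and BSA is only on slide 1.

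Against BSA, the groups did not overlap with the combination for 9 of the 11 member probes, or 81.8%, beside 54% of all tested probes. Within slide 1, where Rspo2 replicate 1 can be set beside the BSA arrays, the changes of the member probes lay between -0.15 (*Mmp3*) and 0.26 (*Mmp2*). None passed in a fit that took its spread from the BSA arrays alone, as there was a single Rspo2 array.

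**Figure D5:**
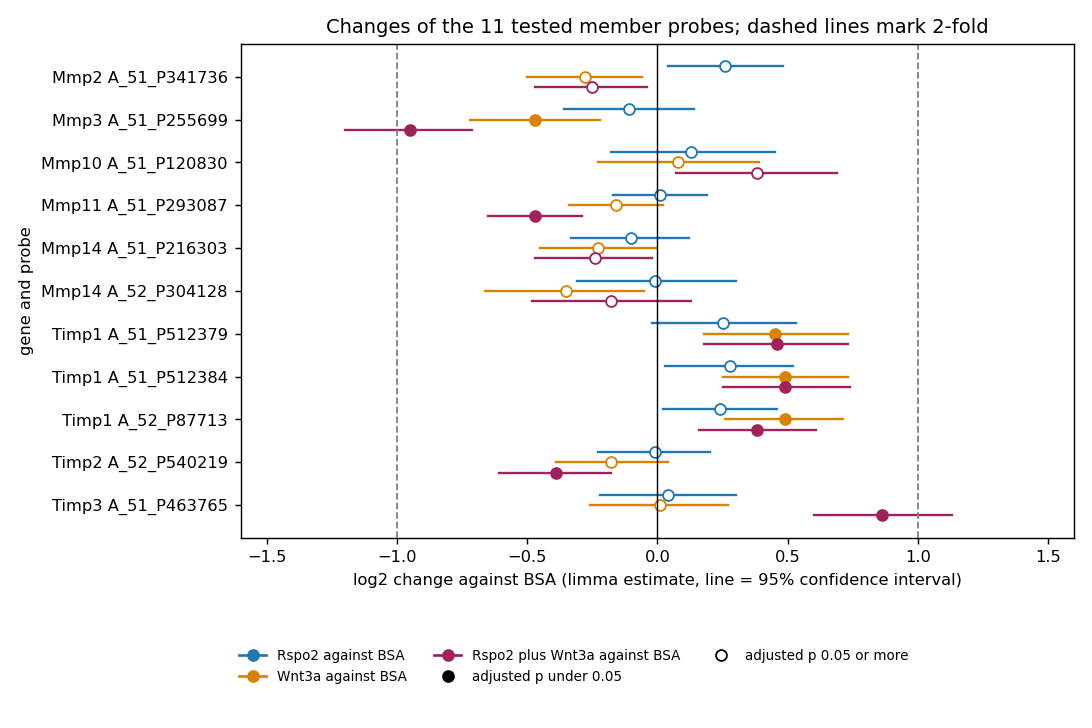
Log2 change against BSA (x axis) of the 11 tested member probes (y axis) with Rspo2, Wnt3a or both; points are limma estimates, lines 95% confidence intervals, and filled points have an adjusted p under 0.05. Filled points lie between -0.95 (Mmp3) and 0.86 (Timp3), inside the dashed 2-fold lines.

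For the members that rose or fell with the combination, the genes with the most similar signals over the 12 arrays were listed among 16816 candidate probes, or 16814 for *Timp1*, with signal well above background throughout. This list was made after their values were seen, since the fixed rule asked for a member called at 2-fold. *Timp3* was closest to *Fzd2*, a Wnt receptor gene (Pearson's r = 0.964 over 12 arrays), *Fgfrl1* (r = 0.962) and *Adamtsl2* (r = 0.953). *Mmp3* was closest to *Rasa1* (r = 0.985), *St3gal1* (r = 0.982) and *Plekha5* (r = 0.981), and *Mmp11* was also closest to *Rasa1* (r = 0.977). The 12 arrays share their treatments and slides, so these values describe a likeness between profiles and were not tested.

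Among the 17 other genes of the MMP and TIMP families, 15 were on the array and 6 were tested. Of these 6, 1 rose and 1 fell with Rspo2, where 16.8% of all tested probes passed. With Wnt3a 1 rose and 1 fell, beside 18.3% and 13.2% of all tested probes, and with both 1 rose and 2 fell, beside 21.9% and 17.3%. With the combination *Mmp24*, a membrane-anchored MMP gene, rose by 0.75 on the log2 scale (adjusted p = 0.00155), and *Mmp19* and *Mmp23* fell by 0.47 and 0.51 (adjusted p = 0.0235 and 0.0315). *Mmp28* fell with Rspo2 by 0.44 and with Wnt3a by 0.62 (adjusted p = 0.0255 and 0.00249) and was at -0.02 with both (adjusted p = 0.922), with an interaction of 1.05 (adjusted p = 0.00407). These 4 genes were named after their values were seen. None was called at 2-fold against BSA, and with slide as a term 0 of the 6 tested genes passed against BSA in any of the 3 comparisons.

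Of 16 genes for other inhibitors, activators and partners of MMPs, 11 were tested. With the combination 3 rose and 7 fell, beside 21.9% and 17.3% of all tested probes. The median change was -0.42 on the log2 scale, beside 0.04 for all tested probes. With slide as a term 0 rose and 2 fell, *Lcn2* and *Itgb3*. The gene with the largest change in this list was *Lcn2*, which encodes lipocalin 2, a partner of gelatinase B in a stable complex. It was at 1.78, 2.03 and 2 with BSA, -2.40, -2.56 and -2.25 with Rspo2, -4.01, -4.03 and -3.81 with Wnt3a, and -5.11, -5.46 and -5.53 with both, the last being well above background on 1 of 3 arrays. No groups overlapped. *Lcn2* fell with Rspo2, Wnt3a and both, with log2 changes of -4.34, -5.89 and -7.31 (SE 0.13, adjusted p = 7.15e-08, 2.74e-09 and 1.37e-10 in limma). When slide was added to the fit they were -4.33, -5.95 and -7.51 (adjusted p = 6.57e-05, 2.79e-05 and 2.64e-05). *Itgb3*, an integrin chain that binds gelatinase A on the cell surface in its dimer with *Itgav*, fell by 1.61 with both by probe A_52_P553890 (adjusted p = 7.38e-07), while its other probe, A_51_P237893, was at 0.16 (adjusted p = 0.568). *Reck*, a membrane inhibitor of MMPs, fell by 0.44 with both (adjusted p = 0.0195), and *Furin*, which activates *Mmp11* and *Mmp14* proteins, by 0.38 (adjusted p = 0.00918). The last pair was named after their values were seen.

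Plasmin activates several MMP precursors, so genes for its formation were listed too. Of 14, 10 were tested. With Rspo2, 4 rose and 0 fell, with Wnt3a 6 rose and 0 fell, and with both 5 rose and 1 fell (median 0.58, beside 0.04 for all tested probes). Of all tested probes, 16.8% passed with Rspo2, 31.5% with Wnt3a (18.3% as higher) and 39.2% with both (21.9% as higher). *Plat*, the gene of tissue plasminogen activator, rose with both by 1.29 and 1.40 by probes A_51_P301566 and A_52_P409833 (adjusted p = 1e-06 and 4.59e-07), and a dim probe, A_52_P405772, was at 0.48 (adjusted p = 0.214). *Plaur*, the urokinase receptor gene, rose by 0.79 (adjusted p = 0.00127) and was named after its values were seen. *Hgf*, whose product is a growth factor activated by related proteases, fell by 1.45 (adjusted p = 0.00084). Its signal was dim, at 58, 51.8 and 45 units with BSA and 19.6, 22.3 and 12.4 with both. The array at 12.4 was not well above background, so the size of this fall is not firm. With slide as a term, only 1 of the 10 genes, *Plat*, passed with the combination by its brightest probe (1.24 by A_51_P301566, adjusted p = 0.0064). In that fit probe A_52_P409833 gave 1.43 (adjusted p = 0.00564) and the dim probe -0.06 (adjusted p = 0.98).

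ADAM and ADAMTS proteases, which *Timp3* protein inhibits, were represented by 16 tested genes of 20. With Rspo2 0 rose and 3 fell, with Wnt3a 0 rose and 7 fell, and with both 0 rose and 8 fell (median -0.30 with both). Among all tested probes 16.8% passed with Rspo2, 13.2% fell with Wnt3a and 17.3% fell with both. With slide as a term 0 of the 16 passed with the combination by their brightest probes. *Adamts2*, which trims the ends of procollagen, was measured by 4 probes, and it fell with both, with log2 changes of -1.97, -1.62, -0.84 and -1.74 (adjusted p between 2.05e-07 and 0.0112). One of these probes, A_51_P164817, also passed with slide as a term (-2.11, adjusted p = 0.00291). *Adamts9* and *Adamts5*, which cleave large proteoglycans, also fell with both. The change was -1.21 for *Adamts9* (adjusted p = 0.00159) and -1.01 and -1.20 for the 2 probes of *Adamts5* (adjusted p = 0.00121 and 0.0056). With slide as a term the brighter *Adamts5* probe did not pass (-0.61, adjusted p = 0.33). The dimmer one, A_52_P70231, did (-2.42, adjusted p = 0.00516), but that fit joins the combination to the other groups only through Wnt3a replicate 3. This array was at -3.37, against -4.54 and -4.61 for the other Wnt3a arrays. With both proteins the dimmer probe gave 22.9, 19.8 and 27.6 units, and the array at 19.8 was not well above background. Its size with slide as a term is therefore not firm. *Adamts7* fell in all 3 comparisons with BSA: by probe A_52_P344036 the changes were -1.03, -1.10 and -0.95 with Rspo2, Wnt3a and both (adjusted p = 0.00876, 0.00145 and 0.00142), and none of them passed with slide as a term (adjusted p = 0.201, 0.346 and 0.56).

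AP-1 and ETS factors, which are known to act on *Mmp* promoters, were represented by 15 tested genes of 20, and none was called at 2-fold. With Rspo2 1 rose, *Etv1* by 0.29 (adjusted p = 0.0313 in limma), and 0 fell, beside 16.8% of all tested probes that passed. With Wnt3a 1 rose, *Jund* by 0.33 (adjusted p = 0.0449), and 0 fell, beside 18.3% and 13.2% of all tested probes. With both 3 rose (*Ets2* by 0.68, *Fosl2* by 0.60 and *Jun* by 0.20, with adjusted p = 0.000206, 0.00233 and 0.0383). *Etv1*, which rose with Rspo2, fell with both by 0.39 (adjusted p = 0.00245). The 4 of 15 genes that passed with both compare with 39.2% of all tested probes, and with slide as a term 1 rose and 0 fell. All genes of this list were named after their values were seen.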

How the data were processed

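RNA of C57MG monolayers, 3 per treatment, was hybridized in a single color to Agilent arrays, 1 per monolayer. The deposited scanner files hold intensity values that the authors made with Agilent Feature Extraction 9.5.3.1, per the labels, after background subtraction and with no scaling between arrays. The deposited table of all samples holds ratio values, each signal divided by the 75th percentile of its array by the authors, and was used as an alternative.

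Of 520548 spot values, 1327 flagged as non-uniform or as outliers were left out, spots of a probe were averaged, and values were converted to log2 minus the array's 75th percentile. None was saturated. A probe was detected with at least 0.5 of its spots well above background on all 3 arrays of a group and with values on at least 2 arrays of each group. The test was limma (3.58.1, R 4.3.3) over 12 arrays, with Benjamini-Hochberg adjustment over 22750 probes (prior degrees of freedom 2.74). A change was called at an adjusted p under 0.05 and 2-fold. An exact permutation test was not used, since with 3 arrays a group its smallest p is 0.1. All members were named, and from each related list genes called against BSA, at most 6, ranked by size. A listed gene was counted by its brightest tested probe. The fit was tested on simulated data. Figures were drawn with matplotlib 3.10.9. The number of arrays and, for dim probes, the signal over background limit precision.

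The members and the lists were chosen with earlier results of these data known. Lists were named through RefSeq accessions (22951 probes) or otherwise the symbol in the files. Alternatives comprised other background corrections, scalings, filters and tests, slide and replicate terms, and the leaving out of each array.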

Additional observations from a re-analysis of the deposited data

Results flagged for a closer look

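The effect of Rspo2 on *Timp3* differed with the presence of Wnt3a, by the interaction term of the limma fit: the change with Rspo2 in the presence of Wnt3a less that in its absence was 0.82 on the log2 scale (adjusted p = 0.0193). It was 1 of 11 member probes, a share near the 8.9% of all tested probes. It did not pass with the replicate block (adjusted p = 0.0524), without the filter on dim probes (0.0843), with normexp (0.453) or by the methods' t-test after adjustment (0.116). Groups of 3 arrays are too small for a test of single outlying arrays.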

How the results depend on the processing

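Against BSA, no change of a member probe that passed turned its direction under any alternative. The count of member probes called at 2-fold, 0 in all 5 comparisons, became 1 for the combination under quantile normalization and under the 75th percentile of probes above background on all arrays (*Mmp3* in both), 1 for Wnt3a without the filter on dim probes, 1 for Rspo2, Wnt3a and the interaction with the positive and significant flag (*Mmp9*), and 1 for the combination against BSA, against Wnt3a and for the interaction with slide as a term (*Timp3*). With no fold requirement it was 4 for Wnt3a, 7 for the combination, 2 for the combination against Wnt3a and 1 for the interaction.

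The counts by adjusted p were 4, 7, 2 and 1 in these comparisons. They became 0, 2, 0 and 0 with normexp, 0, 3, 0 and 0 with the methods' t-test after adjustment, and 0, 1 and 1 for the first 3 with slide as a term. The count for Wnt3a became 9 with the other percentile, that for Rspo2 1 with the positive and significant flag, and that for the interaction 2 with that flag and with the methods' t-test unadjusted. The count for the combination against Wnt3a was 1 without the filter, with that flag, with slide as a random block and with only the groups compared, and 0 within slide 3, and that for the interaction was 0 without the filter. With an array left out the counts were 3 to 5, 6 to 9, 1 to 3 and 1 to 2. Quantile normalization gave 5, 8, 2 and 1, but among the calls with Wnt3a those of *Timp1* were lost and those of *Mmp11*, *Mmp14* and *Timp2* gained. The cause was not tested.

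With the replicate block the counts were 4, 8, 1 and 0, as *Mmp3* against Wnt3a had an adjusted p of 0.0643 and the *Timp3* interaction one of 0.0524. The replicate numbers are shared labels only: deviations of same-numbered arrays correlated between -0.412 and 0.272, and over 0.1 in 4 of 18 pairs. Normexp took the median of all tested probes with Rspo2 from 0.01 to 0.15, and the other percentile that with Wnt3a from 0 to -0.12. Signal over background limits *Mmp9* and *Mmp13*.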
